A study of Mus musculus with 48 samples.

Results

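The genes described here are the 34 genes of glycolysis and pyruvate entry, which carry glucose from its first phosphorylation to pyruvate, turn pyruvate into lactate or pass it into mitochondria, and set the gate of the pyruvate dehydrogenase complex. They were taken by symbol from the count table, where they fill 35 of 54532 gene rows because *Aldoa* is listed in 2 rows, and all 35 rows were among the 19977 that passed the filter on low counts. The libraries came from bulk RNA of inguinal white adipose tissue, the subcutaneous depot called sWAT, of C57BL/6 male mice (C57BL/6J in the study's methods) aged 8 months. Mice were either fed ad libitum (ad-lib), with chow always present, or fed in a pair of nightly meals (TAN), with food offered only in an early-night and a late-night window. Tissue was collected at 8:00 a.m., 12:00 p.m., 4:00 p.m., 8:00 p.m., 12:00 a.m. and 4:00 a.m. from 4 mice of each diet, which gave 12 groups and 48 libraries. Neither diet group carried a transgene or received an agent. Each library was counted as 1 sample, and p-values measure the spread between these libraries.

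Glycolysis splits glucose in the cytosol, and its flux is held at hexokinase, phosphofructokinase and pyruvate kinase. The PFKFB enzymes make and remove fructose 2,6-bisphosphate, the strongest activator of phosphofructokinase. Pyruvate then meets a branch. Lactate dehydrogenase and the monocarboxylate transporters send it out of the cell as lactate, while the mitochondrial pyruvate carrier (MPC) and the pyruvate dehydrogenase complex make acetyl-CoA from it, which adipocytes use for oxidation and, through citrate, for fatty acid synthesis. The pyruvate dehydrogenase kinases (PDK) close that gate by phosphorylation and pyruvate dehydrogenase phosphatases open it.

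Libraries held 15636378 to 29913310 counts. Several properties of the libraries moved with diet and time. At 4:00 p.m. the summed level of 13 lymphocyte markers was 1150.2 to 2023 CPM (counts scaled to a common library size with TMM factors) in ad-lib and 12.7 to 418 CPM in TAN, although no marker of the list was at 0 in a library of either group. The summed level of 9 adipocyte markers at that time was 17519 to 25363 CPM in ad-lib and 38909 to 67077 CPM in TAN. Loci of the biotype TEC, gene models awaiting experimental support, took 0.0882% to 0.110% of counts in ad-lib and 0.0327% to 0.0847% in TAN at 4:00 p.m. TAN replicates 1 and 2 at 8:00 p.m. stood apart with 1.57% and 1.67% of counts on processed pseudogenes, where no ad-lib library was above 1.01%. They had 15271 and 15866 genes detected, and TAN replicate 1 at 4:00 p.m. had 15693. Ad-lib replicate 3 at 4:00 a.m. held 7847 CPM of skeletal muscle markers. In bulk tissue, fewer cells of a type and less RNA per cell cannot be told apart. The series' text names the stromal vascular fraction and the study's methods name whole sWAT. The adipocyte markers summed to 8783 CPM or more in every library.

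Each of the 48 count columns matched, over 966 genes, a column of the study's supplementary expression sheet that carries the same animal name and a clock time 12 h apart, and 0 matched the column of the same time. The times used here are those of the sample labels. In these labels *Arntl*, the clock activator, was at 32.3 ± 9.59 CPM (SD, n = 4) in ad-lib at 8:00 a.m. and 9.93 ± 2.96 CPM at 4:00 p.m., and the output gene *Dbp* went from 8.37 ± 4.99 to 102 ± 19.9 CPM between the same times. The other labelling would turn each time named in the text into the time 12 h away and leave every TAN to ad-lib comparison as it is.

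Promoters of 33 of the 34 genes were found in RefSeq (GRCm38.p6), as the 250 bases before each annotated start. The letters CACGTG, the E-box read by USF, MYC and clock factors, stood in a window of 6 of the 33 genes (18.2%) and of 6.86% of all genes with a window. The letters ACGTG, a form of the core of the hypoxia response element, overlap the E-box. They stood on either strand in 14 of the 33 (42.4%) and in 18.5% of all genes. Other forms of that core were not searched. Of the 16 genes that rose in TAN at 4:00 p.m., 1 held CACGTG and 6 held ACGTG, against 5 and 8 of the 17 that did not. Windows of 4 genes that rose are shown because 3 of them hold ACGTG, *Ldha* with E-boxes that begin 145 and 48 bases before its start, and the fourth, the gate gene *Pdha1*, holds none. The other genes that rose and hold ACGTG are *Aldoa*, *Pkm* and *Pdhb*, the last also a gate gene, so the windows shown do not part the trunk from the gate. Capitals mark ACGTG or its complement CACGT. The windows are chr7:46845554-46845803 on the plus strand for *Ldha*, chrX:106186850-106187099 on the plus strand for *Pgk1*, chr19:41911621-41911870 on the plus strand for *Pgam1* and chrX:160138431-160138680 on the minus strand for *Pdha1*. A match is a string of letters and not a measured site.
Ldha: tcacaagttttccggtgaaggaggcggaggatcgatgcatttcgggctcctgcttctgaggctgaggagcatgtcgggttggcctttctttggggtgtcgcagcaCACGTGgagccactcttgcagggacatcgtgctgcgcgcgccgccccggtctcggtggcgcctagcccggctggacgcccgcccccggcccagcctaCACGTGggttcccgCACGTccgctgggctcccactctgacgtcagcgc
Pgk1: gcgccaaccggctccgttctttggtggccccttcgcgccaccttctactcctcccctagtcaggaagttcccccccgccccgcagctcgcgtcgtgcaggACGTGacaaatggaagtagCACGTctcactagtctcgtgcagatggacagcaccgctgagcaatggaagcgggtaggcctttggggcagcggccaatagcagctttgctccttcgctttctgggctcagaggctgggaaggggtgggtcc
Pgam1: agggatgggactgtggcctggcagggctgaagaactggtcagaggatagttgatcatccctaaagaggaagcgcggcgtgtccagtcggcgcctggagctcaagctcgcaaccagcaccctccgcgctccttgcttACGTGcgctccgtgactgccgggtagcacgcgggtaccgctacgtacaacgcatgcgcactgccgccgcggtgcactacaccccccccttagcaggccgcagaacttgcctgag
Pdha1: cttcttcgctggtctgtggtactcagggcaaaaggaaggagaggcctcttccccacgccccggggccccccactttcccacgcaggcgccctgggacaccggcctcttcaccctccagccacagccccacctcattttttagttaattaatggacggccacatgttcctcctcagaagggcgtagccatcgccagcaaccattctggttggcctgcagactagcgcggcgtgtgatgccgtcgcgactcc

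Levels spanned a wide range. Per kilobase of gene length, the median over the 48 libraries was 432 CPM for *Ldha*, 393 CPM for *Aldoa*, 132 CPM for *Tpi1*, 129 CPM for *Pdha1* and 127 CPM for *Eno1*, and 2.21 CPM for *Hk1*, 0.473 CPM for *Aldoc* and 0.352 CPM for *Slc16a3*. sWAT used one isoform far above the others in most families. On that per-length scale *Hk2*, the insulin-responsive hexokinase, made 87.0% ± 8.9 (SD, n = 48) of the hexokinase pair, *Aldoa* 99.9% ± 0.128 of the aldolase pair, *Ldha* 86.6% ± 2.5 of the lactate dehydrogenase pair, *Slc16a1* (MCT1) 97.7% ± 2.4 of the transporter pair and *Pfkfb3* 75.9% ± 7.5 of the 4 PFKFB genes. Phosphofructokinase and the PDK family were mixed. *Pfkl*, *Pfkm* and *Pfkp* made 42.6%, 28.8% and 28.7%, and *Pdk1*, *Pdk4*, *Pdk2* and *Pdk3* made 31.6%, 31.5%, 23.3% and 13.6%. These shares depend on the listed gene lengths, which were 6675, 3340 and 13401 bases for *Pfkl*, *Pfkm* and *Pfkp*. Without division by length their medians were 75.9, 21.4 and 90.8 CPM, with *Pfkp* highest. *Pdk1* and *Pdk4*, at 7779 and 3511 bases, had medians of 144.7 and 64.2 CPM.

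Averaged over the 6 times, many genes of the trunk of the pathway and of the pyruvate gate were higher in TAN than in ad-lib. With all 48 libraries in 1 edgeR model, 16 of the 35 rows were called higher in TAN at an adjusted p under 0.05 and 0 lower, where 2.68% of all genes tested were called higher and 2.74% lower. The median log2 fold change of the members was 0.40, and that of all genes tested was -0.08. *Eno1*, the enolase of most tissues, rose by a log2 fold change of 0.90 ± 0.10 (SE, adjusted p = 4.19e-08). *Pkm*, muscle-type pyruvate kinase, rose by 0.73 ± 0.09 (adjusted p = 3.07e-07) and *Pfkl*, the liver-type phosphofructokinase, by 0.77 ± 0.09 (adjusted p = 5.7e-07). Both carrier subunits rose, *Mpc1* by 0.93 ± 0.16 (adjusted p = 0.000277) and *Mpc2* by 0.86 ± 0.16 (adjusted p = 0.000737). Of the pyruvate dehydrogenase complex, *Pdha1* and *Pdhb* (the E1 subunits), *Dlat* (E2) and *Pdhx* (the E3-binding protein) rose by 0.57 to 0.86, and the shared E3 subunit *Dld* was at 0.40 with an adjusted p of 0.061. *Pdk1* was the one kinase called, at 0.53 ± 0.09 (adjusted p = 0.000246). *Gpi1*, *Aldoa*, *Pgk1*, *Pgam1* and *Ldha* rose by 0.40 to 0.67, and *Gapdh* passed at an adjusted p of 0.0497 with counts that are treated as uncertain. None of the 4 PFKFB genes was called, with values of -0.26 to 0.17 and a smallest adjusted p of 0.368. With the lymphocyte markers as a covariate 16 were called, and with the share of TEC counts 15, among them *Pfkp* and without *Ldha* and *Pgam1*. Without the libraries numbered replicate 4 there were 9. Over all genes these fits called 1045 and 568 of 19977, and 421 of 20178. The median log2 fold change of the mean effect was -0.52 over the lymphocyte markers, -1.91 over the skeletal muscle markers (0 called in both), -0.46 over 8 macrophage markers (1 called lower) and 0.24 over the adipocyte markers (0 called). With the skeletal muscle markers as a covariate 16 members and 1197 of 19977 genes were called. The part of the macrophage and adipocyte markers was not tested.

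**Figure D1:**
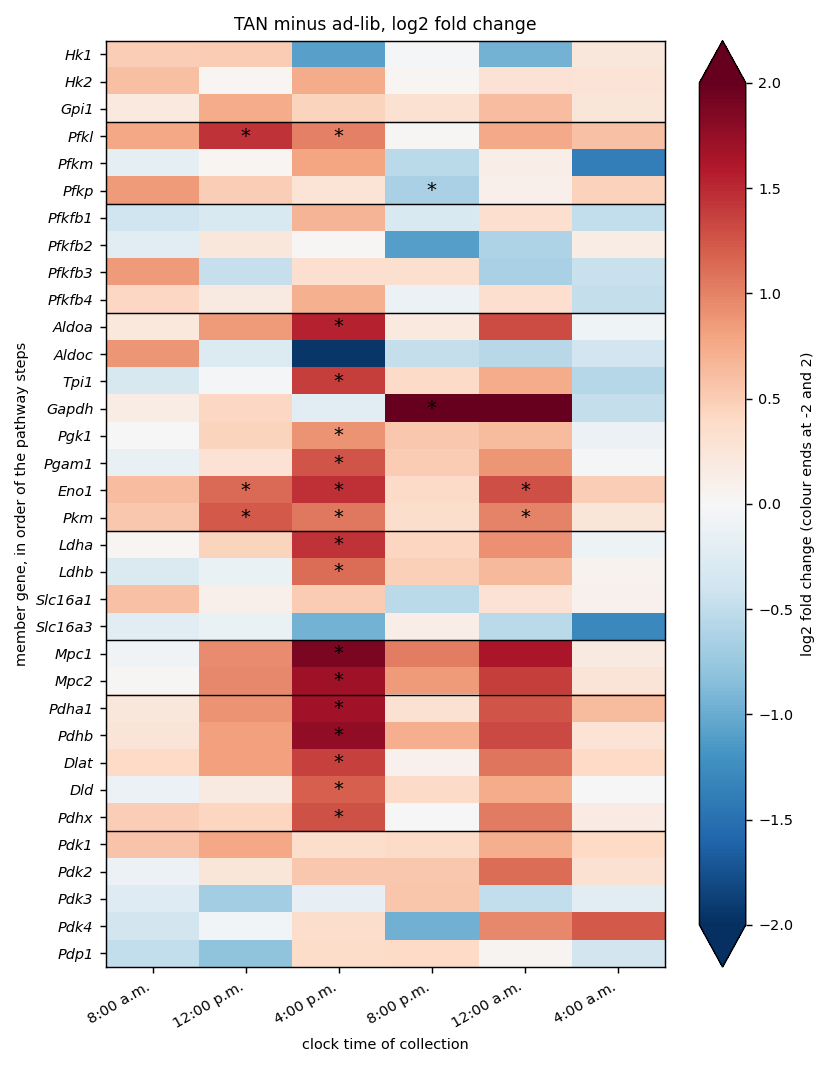
Log2 fold change of TAN over ad-lib for the 34 genes (rows, in the order of the pathway, lines between steps) at each clock time (columns), with the more abundant of the 2 *Aldoa* rows. Stars mark an adjusted p under 0.05. The 4:00 p.m. column holds 16 stars, all of them positive, and *Mpc1* is at 1.88 there.

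The times were not alike. At 4:00 p.m. 16 of 35 rows were called higher and 0 lower, with 6.54% of all genes higher and 8.77% lower. The median log2 fold change was 0.80 over the members and -0.09 over all genes. *Aldoa* to *Pkm* gave 6 of 9 rows called, the carrier 2 of 2, the dehydrogenase complex 5 of 5, the lactate branch 2 of 4 and the phosphofructokinases 1 of 3. The hexokinase step, the PFKFB genes and the kinases and phosphatase gave 0. These are the groups whose lymphocyte and adipocyte marker sums did not overlap between the diets. The median log2 fold change was 1.15 over the 9 adipocyte markers (2 called higher) and -3.56 over the 13 lymphocyte markers (4 called lower). With the lymphocyte markers as a covariate, 0 of 35 members and 0 of all genes tested were called at 4:00 p.m., and the log2 fold changes of the 16 members went from 0.90 to 1.88 (median 1.38) down to 0.55 to 1.15 (median 0.73), with adjusted p of 0.11 to 0.402. Under that covariate 11 of the 35 rows changed sign, none of them called. With the TEC share as a covariate *Eno1*, *Pkm* and *Pfkl* remained called, and 55 of 19977 genes were called. At this time diet and tissue makeup cannot be told apart. The share of all genes whose diets did not overlap was not counted, at this or any other time.

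Both subunits of the pyruvate carrier rose at 4:00 p.m. *Mpc1* stood at 55.1, 42.0, 43.0 and 47.4 CPM in ad-lib replicates 1 to 4 and at 252, 128, 143 and 168 CPM in TAN, a log2 fold change of 1.88 ± 0.40 (adjusted p = 0.00724). *Mpc2* was at 126, 110.2, 85.7 and 90.7 CPM in ad-lib and 364, 277, 361 and 332 CPM in TAN (1.69 ± 0.39, adjusted p = 0.00933). The diets did not overlap for either subunit, and TAN replicate 1 was the highest for both.

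The dehydrogenase subunits followed. *Pdha1* (chrX:160122209-160138413), the catalytic E1 alpha subunit that the kinases phosphorylate, was at 321, 298, 189 and 221 CPM in ad-lib and 825, 693, 587 and 1183 CPM in TAN (1.67 ± 0.42, adjusted p = 0.0125). *Pdhb*, its E1 beta partner, was at 304, 249, 187 and 214 against 949.6, 586, 723 and 999.8 CPM (1.77 ± 0.37, adjusted p = 0.00705). Every TAN library was above every ad-lib library for both. *Dlat* was at 121, 120.4, 84.8 and 112 against 272, 253, 215 and 394 CPM (1.37 ± 0.34, adjusted p = 0.0125). *Dld*, which also serves other 2-oxoacid dehydrogenases, was at 232, 238, 183 and 216 against 666, 371, 411 and 548 CPM (a 2.3-fold rise, adjusted p = 0.016). *Pdhx* was at 47.1, 45.3, 33.1 and 38.5 against 121, 81.7, 76.4 and 117 CPM (1.27 ± 0.30, adjusted p = 0.00993). Ad-lib replicate 3 was the lowest library for all 5 subunits.

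The kinases and the phosphatase of the gate did not pass the test. *Pdk1* was at 121, 110.2, 133 and 115 CPM in ad-lib and 147, 122, 159 and 179 CPM in TAN. *Pdk2* was at 43.4, 41.0, 32.6 and 49.9 against 39.6, 76.0, 49.8 and 78.4 CPM, and *Pdk3* at 20.1, 14.3, 20.6 and 16 against 21.3, 11.3, 17.2 and 13.4 CPM. *Pdk4*, the fasting-induced kinase, was at 34.2, 52.0, 29.6 and 80.7 against 63.7, 46.6, 46.4 and 94.4 CPM. The diets overlapped for all 4 kinases and for the phosphatase *Pdp1*, whose log2 fold change was 0.37 ± 0.21 (adjusted p = 0.23).

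In the lower trunk, from aldolase to pyruvate kinase, 6 of 9 rows were called higher, where 6.54% of all genes were. Every TAN library was above every ad-lib library for these 6 genes, a separation whose share over all genes was not counted. *Aldoa* was at 718, 704, 496 and 589 CPM in ad-lib and 1685, 1659, 1381 and 2575 CPM in TAN (1.54 ± 0.35, adjusted p = 0.00931). *Tpi1*, triose phosphate isomerase, was at 279.9, 285, 188 and 205 against 668, 545, 614 and 681 CPM (1.39 ± 0.34, adjusted p = 0.0116). *Pgk1*, the first enzyme of the pathway that returns ATP, was at 148, 134, 121 and 109 against 248, 201, 227 and 277 CPM (0.90 ± 0.19, adjusted p = 0.0072). Of these, *Pgk1* had the smallest rise. *Pgam1*, phosphoglycerate mutase, was at 81.8, 96.0, 72.4 and 88.9 against 213, 179.8, 193 and 222 CPM (1.25 ± 0.27, adjusted p = 0.00818). *Eno1* (chr4:150236721-150248879) was at 449, 388, 426 and 395 against 920.3, 1054, 835 and 1742 CPM (1.46 ± 0.24, adjusted p = 0.00273). *Pkm* was at 309, 274, 289 and 264 against 496, 587, 447 and 818 CPM (1.05 ± 0.21, adjusted p = 0.00705). TAN replicate 4 was the highest library for *Aldoa*, *Tpi1*, *Pgk1*, *Pgam1*, *Eno1* and *Pkm*. A near copy of *Eno1*, *Eno1b*, had a median of 259.5 counts and *Ldha-ps2* 56.5, both small beside their parents.

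On the lactate side, *Ldha* (chr7:46841475-46855627), the isoform that favours lactate, was at 834, 716, 601 and 593 CPM in ad-lib and 2093, 1523, 1965 and 1888 CPM in TAN (1.44 ± 0.32, adjusted p = 0.00818). *Ldhb* was at 75.6, 77.9, 49.0 and 67.4 against 177, 120.1, 129.5 and 156 CPM (1.11 ± 0.29, adjusted p = 0.0154). Both rose with no overlap. The transporter *Slc16a1* was at 47.7, 49.1, 44.5 and 44.6 against 98.0, 51.2, 53.4 and 61.9 CPM (0.51 ± 0.29, adjusted p = 0.221), and *Slc16a3* (MCT4) was at or under 3.60 CPM in all 8 libraries.

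The upper steps were less affected. *Pfkl* (chr10:77986947-78010083) was at 44.3, 51.8, 46.3 and 56.7 CPM in ad-lib and 85.6, 109, 84.4 and 120.2 CPM in TAN (a 2.01-fold rise, adjusted p = 0.0093). Its relatives did not pass. *Pfkm* was at 16.5, 20.1, 14.4 and 18.0 against 28.9, 34, 23.5 and 33.5 CPM (0.80 ± 0.59, adjusted p = 0.359). Every TAN library was above every ad-lib library for *Pfkm* too, and the log2 ratio of *Pfkl* to *Pfkm* was only 0.20 higher in TAN here. *Pfkp* was at 76.1, 71.7, 75.8 and 83.5 against 69.0, 88.7, 77.0 and 135 CPM (0.27 ± 0.21, adjusted p = 0.381). *Hk2* was at 82.6, 72.3, 62.5 and 91.3 against 118, 165, 55.4 and 180.5 CPM, with TAN replicate 3 below every ad-lib library. *Hk1* was at 17.1, 20.5, 31.7 and 23.7 against 3.91, 18.3, 12.3 and 9.21 CPM (-1.09 ± 0.44, adjusted p = 0.0784). *Gpi1* was 181 to 195 CPM in ad-lib and 199 to 332 CPM in TAN (0.44 ± 0.19, adjusted p = 0.0884). *Pfkfb3*, the PFKFB gene with the highest level, was at 571, 707, 629 and 919 against 683, 1228, 556 and 1115 CPM, and the others ranged from 9.02 to 96.7 CPM with adjusted p of 0.0724 or more.

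**Figure D2:**
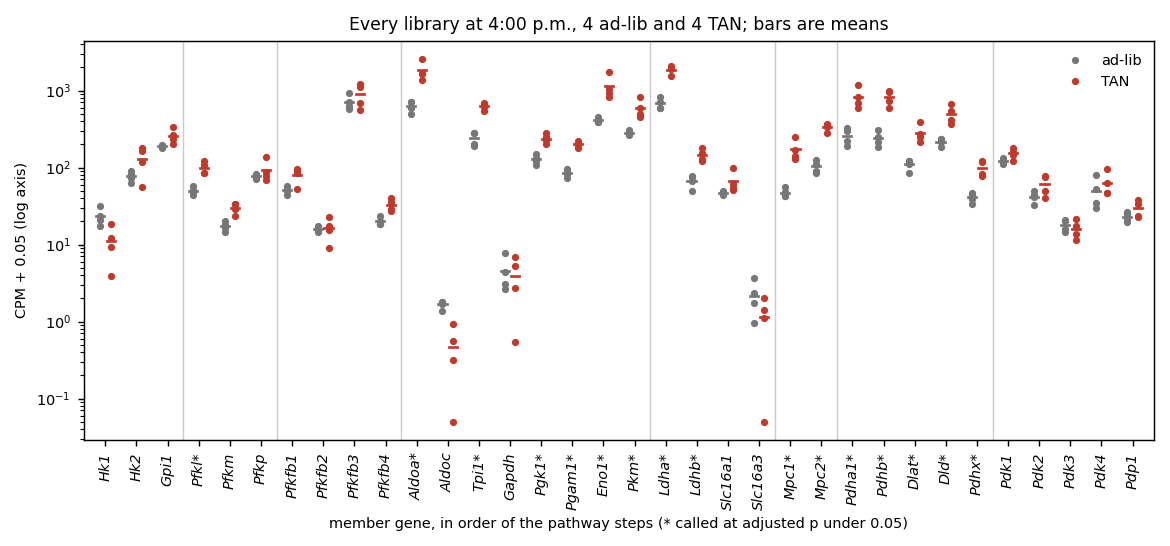
CPM of each gene in each of the 8 libraries at 4:00 p.m. (log axis, 0.05 added so that 0 can be drawn; grey ad-lib, red TAN, bars are means of 4). For the 16 starred genes all red points lie above all grey points, as for *Ldha* with 593 to 834 against 1523 to 2093 CPM. The share of all genes separated in this way was not counted.

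Some glycolytic enzymes were also higher in TAN at 12:00 p.m. *Pfkl* was at 28.6, 27.7, 50.4 and 49.2 CPM in ad-lib and 106, 104, 78.7 and 136 CPM in TAN (1.45 ± 0.23, adjusted p = 0.00131). *Pkm* was at 192, 227, 376 and 287 against 595, 654, 481 and 796 CPM (1.22 ± 0.22, adjusted p = 0.00412), and *Eno1* at 397, 390.2, 498 and 437 against 902, 987, 709 and 1195 CPM (1.14 ± 0.24, adjusted p = 0.0339). The 3 genes did not overlap between the diets. They were 3 of 35 rows with 0 lower, where 0.0851% of all genes were called higher and 0.00501% lower. Lymphocyte marker sums overlapped between the diets at this time, at 11.6 to 2065 CPM in ad-lib and 602 to 1421 CPM in TAN, and with them as a covariate 8 members were called higher, where 0.496% of all genes were higher and 0.0551% lower. Without TAN replicate 4, ad-lib replicate 1 or ad-lib replicate 2 there was 1 each. Over all genes these fits called 5 of 20665, 4 of 20635 and 3 of 20608.

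At 12:00 a.m. *Eno1* was at 579, 673, 556 and 520.0 CPM in ad-lib and 885, 1586, 1342 and 1872 CPM in TAN (1.29 ± 0.24, adjusted p = 0.00825). *Pkm* was at 305, 333, 373 and 317 against 533, 629, 661 and 824 CPM (0.99 ± 0.21, adjusted p = 0.0301). They were the 2 rows called higher, with 0 lower, and 0.125% of all genes were called higher and 0.0250% lower. With an unadjusted p under 0.05 as the limit, TAN was higher for 21 rows and lower for 1, where 8.00% of all genes were higher and 9.48% lower. *Mpc1* was at 120.1, 109.5, 57.1 and 56.5 against 125, 361, 309 and 275 CPM (1.64 ± 0.39, adjusted p = 0.0685). TAN replicate 1 was the lowest TAN library for *Mpc1*, *Eno1* and *Pkm*. It also held 1863 CPM of lymphocyte markers where the other 3 TAN libraries held 14.6 to 453 CPM. Without it 17 rows were called, among them *Mpc1*, *Mpc2*, *Pdha1*, *Pdhb*, *Dlat*, *Pdhx* and *Ldha*, while the calls over all genes went to 2.81% higher and 1.41% lower. Without TAN replicate 4 or ad-lib replicate 4, or with the lymphocyte covariate, 0 rows were called. Over all genes these fits called 11 of 20658, 8 of 20652 and 9 of 19977. Without each of the other libraries 1 row was called, and 11 to 30 of all genes.

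At 8:00 p.m. the called rows were *Pfkp*, lower in TAN, and *Gapdh*, higher. For all genes 3.76% were called higher and 7.91% lower. *Pfkp*, the platelet-type phosphofructokinase, was at 91.0, 106, 94.9 and 82.7 CPM in ad-lib and 68.8, 73.6, 46.4 and 49.0 CPM in TAN, and fell by 0.66 ± 0.21 on the log2 scale (adjusted p = 0.0345). Every TAN library was below every ad-lib library. Without ad-lib replicates 1, 2 or 3 or TAN replicates 3 or 4, each left out alone, its adjusted p was 0.061 to 0.101, and with the TEC share as a covariate it was 0.572.

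The libraries of TAN at 8:00 p.m. were spread widely. *Mpc1* was at 69.7 and 45.4 CPM in TAN replicates 1 and 2 and at 179 and 217 CPM in replicates 3 and 4, with 40.2 to 85.7 CPM in ad-lib. Replicates 1 and 2 are the libraries high in processed pseudogene counts. They held 3170 and 3494 CPM of lymphocyte markers and 13302 and 8783 CPM of adipocyte markers. Replicate 3 held 1129 and 45469.7 CPM of these markers, and replicate 4 held 50.9 and 67269.6 CPM. Without both replicates 1 and 2, 8 rows were called higher (*Mpc1*, *Mpc2*, *Pdhb*, *Dld*, *Pgam1*, *Ldhb*, *Pdk2* and *Pdp1*) and *Pfkp* lower. In that fit 4.59% of all genes were higher and 6.21% lower. The part of tissue makeup in these values was not tested.

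*Gapdh* could not be read as a level. It was at 3.43 ± 0.528 CPM (SD, n = 4) in ad-lib at 8:00 p.m. and at 104, 47.1, 2.51 and 2.08 CPM in TAN, and at 12:00 a.m. TAN was at 3.07, 79.6, 73.8 and 5.81 CPM. Raw counts were 1174 to 2046 in those 4 libraries and 8 to 285 in the other 44. The gene has many processed copies in the genome, and near-identical copies share reads. The copies *Gapdh-ps15* and *Gapdh-ps14* held at most 9 and 2 counts in a library. The part of copies in the *Gapdh* counts was not tested. Without TAN replicates 1 and 2 at 8:00 p.m. its log2 fold change there was -0.58. The minor *Aldoa* row held at most 20 counts, and *Gapdh* overlaps *Iffo1* on the other strand, with a median of 91 counts for *Gapdh* and 261.5 for *Iffo1*. Other members overlap a protein-coding gene on the other strand too (*Pfkm*, *Pfkp*, *Pfkfb1*, *Pfkfb2*, *Tpi1*, *Aldoa* and *Pdha1*), and some a noncoding one, so without a stated strand setting those counts may include the partner's reads.

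The remaining times, 8:00 a.m. and then 4:00 a.m., gave 0 of 35 rows called in edgeR, and 0 in DESeq2 and limma voom. Among all genes, TAN was higher for 0.0100% and lower for 0.00501% at 8:00 a.m. The shares were 0% in each direction at 4:00 a.m. With an unadjusted p under 0.05 as the limit, 8:00 a.m. gave 5 higher members and 1 lower member, with 2.96% of all genes higher and 3.62% lower. By that limit 4:00 a.m. gave 4 and 1 members, with 0.901% of all genes higher and 1.74% lower. At 8:00 a.m. *Pfkp* was at 83.6, 106, 64.5 and 56.8 CPM in ad-lib and 132, 157, 144 and 128 CPM in TAN (0.85 ± 0.21, adjusted p = 0.216). At 4:00 a.m. *Pdk4* was at 38.6, 92.3, 93.7 and 47.9 against 212, 138, 177 and 108 CPM (1.22 ± 0.43, unadjusted p = 0.00708). After adjustment *Pdk4* was not called, like every other gene tested at that time. *Pfkm*, the muscle phosphofructokinase, was at 221 CPM in ad-lib replicate 3, the library rich in muscle markers, and at 12.7 to 19.0 CPM in the other ad-lib libraries.

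**Figure D3:**
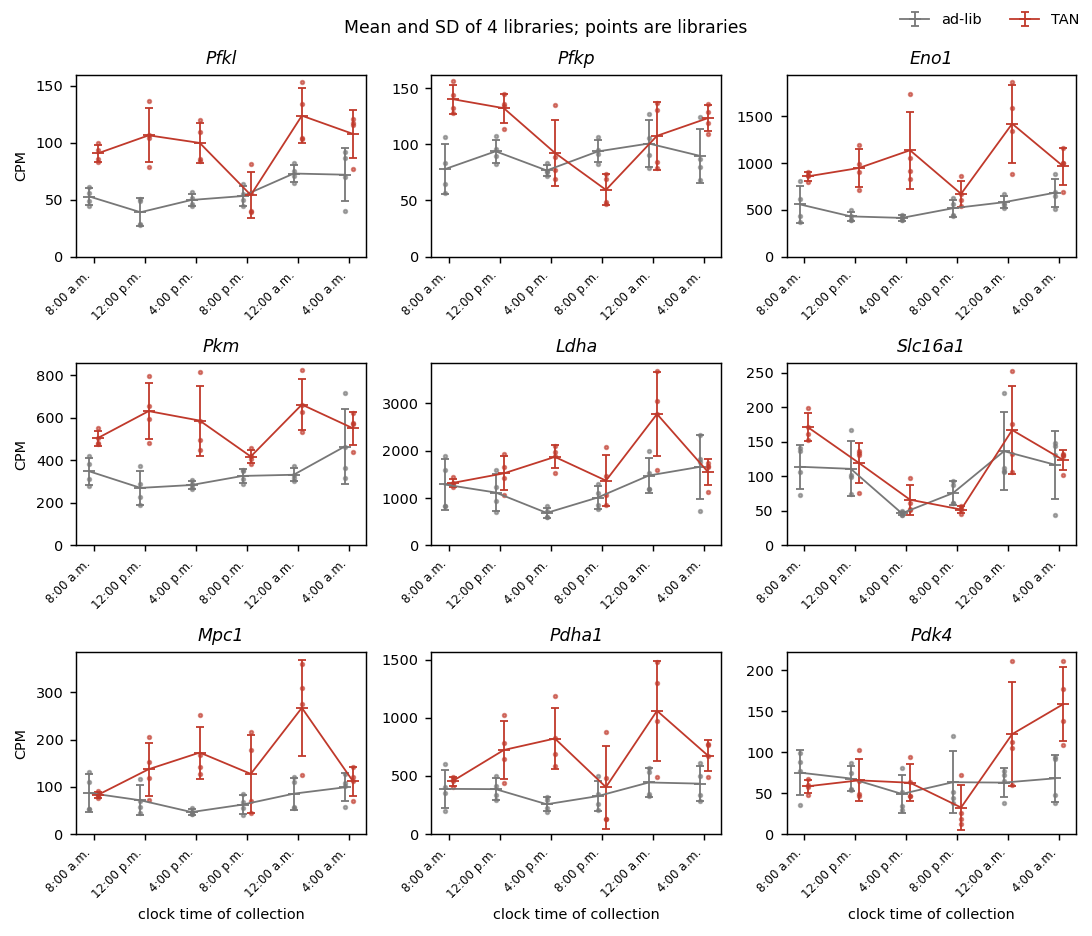
CPM of 9 genes over the 6 collection times (points are libraries, lines join means, bars are SD, n = 4; grey ad-lib, red TAN, all axes start at 0). *Pfkl*, *Eno1* and *Pkm* run above ad-lib from 8:00 a.m. to 4:00 p.m., and *Pfkp* and *Pdk4* fall to 59.5 and 32.6 CPM in TAN at 8:00 p.m.

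Within each diet, variation over the 6 times was tested with 5 degrees of freedom. In ad-lib mice 0 of 35 rows were called (11 at an unadjusted p under 0.05, which 6.67% of all genes met, with 1 called by DESeq2 and 0 by limma voom), where 0.0551% of all genes were. In TAN mice 12 of 35 were called and 23.0% of all genes. The difference between these 2 counts was not tested as such. In TAN *Slc16a1*, the main lactate transporter, was at 171 ± 20.2 CPM (SD, n = 4) at 8:00 a.m., 51.9 ± 5.5 CPM at 8:00 p.m. and 167 ± 64.2 CPM at 12:00 a.m. (adjusted p = 0.000324). In ad-lib it was at 114 ± 31.6, 75.7 ± 17.2 and 136 ± 56.1 CPM at these times (adjusted p = 0.08), with ad-lib replicate 2 at 220.4 CPM and the others at 106 to 111 CPM at 12:00 a.m. *Pfkp* in TAN went from 140.2 ± 12.9 CPM at 8:00 a.m. to 59.5 ± 13.7 CPM at 8:00 p.m. and 123 ± 11.8 CPM at 4:00 a.m. (adjusted p = 0.0011). *Pdk4* in TAN was at 32.6 ± 27.3 CPM at 8:00 p.m., 122 ± 63.6 CPM at 12:00 a.m. and 159 ± 45.2 CPM at 4:00 a.m. (adjusted p = 0.00298), and its ad-lib means were 49.1 to 75.1 CPM. *Pfkl*, *Eno1*, *Ldha*, *Mpc1*, *Pdhb*, *Dlat*, *Pdhx*, *Pdk3* and *Gapdh* were the others called. Without the libraries numbered replicate 2, or those numbered 3, there were 2 called in TAN. Over all genes these fits called 238 of 20239 and 1308 of 19883. Without TAN replicates 1 and 2 at 8:00 p.m. 12 rows were again called, and 3991 of 21708 genes. Of these rows 7 were shared with the fit of all libraries, *Slc16a1*, *Pfkp* and *Pdk4* among the 7.

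Whether the TAN effect itself changed over the times was tested as an interaction. It was called for 6 of 35 rows and for 8.98% of all genes. These were *Pfkp* (adjusted p = 0.0178), *Pdp1* (0.024), *Tpi1* (0.0344), *Pgk1* (0.0434), *Pfkl* (0.0441) and *Gapdh* (0.0442). For *Pfkp* the log2 fold change went from 0.85 at 8:00 a.m. to -0.66 at 8:00 p.m. For *Pdp1*, the phosphatase that reopens the gate, it went from -0.81 at 12:00 p.m., where ad-lib was at 48.2, 36.6, 31.4 and 23.8 CPM and TAN at 19.4, 16.6, 19.9 and 23.7 CPM, to 0.40 at 8:00 p.m. *Tpi1* went from 1.39 at 4:00 p.m. to -0.57 at 4:00 a.m. With the TEC share as a covariate, and without replicates 1, 3 or 4, 0 rows were called, and without replicate 2 there were 2. Over all genes these fits called 2 of 19977, 193 of 20027, 2 of 19883, 234 of 20178 and 982 of 20239.

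Ratios between isoforms, and between enzymes that compete for pyruvate, compare transcripts inside a library. No marker or TEC covariate was used for them, so the part of tissue makeup in the ratios was not tested. The 18 ratios were listed with earlier results of these data known, so their p-values describe these data only. For each, the mean TAN minus ad-lib difference of the log2 ratio was tested by permuting diet within each time (100000 resamples, two-sided). Of the 18 ratios, 5 were called. *Pfkl* gained on both relatives, by 0.67 on *Pfkm* (permutation p = 0.00016, adjusted p = 0.00072, higher at 6 of 6 times) and by 0.52 on *Pfkp* (permutation p = 0.00015, adjusted p = 0.00072, 5 of 6 times). Without replicate 3 the gain on *Pfkm* was 0.43 (adjusted p = 0.0147). Ad-lib replicate 3 held 7847 CPM of skeletal muscle markers at 4:00 a.m. and 3261 CPM at 12:00 p.m., and *Pfkm* made 74.1% and 66.2% of phosphofructokinase per length in these libraries. At 12:00 p.m. *Pfkl* made 27.5% ± 8.4 (SD, n = 4) of phosphofructokinase per length in ad-lib and 43.1% ± 8.1 in TAN. *Ldha* gained 0.24 on *Ldhb* (permutation p = 0.00194, adjusted p = 0.00698, 5 of 6 times). At the pyruvate branch *Mpc1* gained 0.35 on *Ldha* (permutation p = 0.00012, adjusted p = 0.00072, 5 of 6 times), and *Pdha1* gained 0.60 on *Pdk4* (permutation p = 0.00013, adjusted p = 0.00072, 5 of 6 times), with -0.60 at 4:00 a.m. as the exception.

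The other 13 ratios did not pass. *Pdha1* to *Ldha* was at 0.22 (permutation p = 0.0572, adjusted p = 0.172) and *Mpc1* to *Mpc2* at 0.03 (permutation p = 0.683, adjusted p = 0.683). *Aldoa* to *Aldoc* had a mean of 1.2 with values of -2.25 to 4.29 over the times (permutation p = 0.092, adjusted p = 0.197), and *Aldoc* held 0 to 88 counts per library. *Pfkfb3* gained on none of its 3 relatives (0.13, 0.37 and -0.10). Without replicate 2, *Ldha* to *Ldhb* had an adjusted p of 0.0818. Without replicate 1, *Pdha1* to *Ldha* was at 0.33 with an adjusted p of 0.0397, and without replicate 4 at 0.09 with an adjusted p of 0.583.

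**Figure D4:**
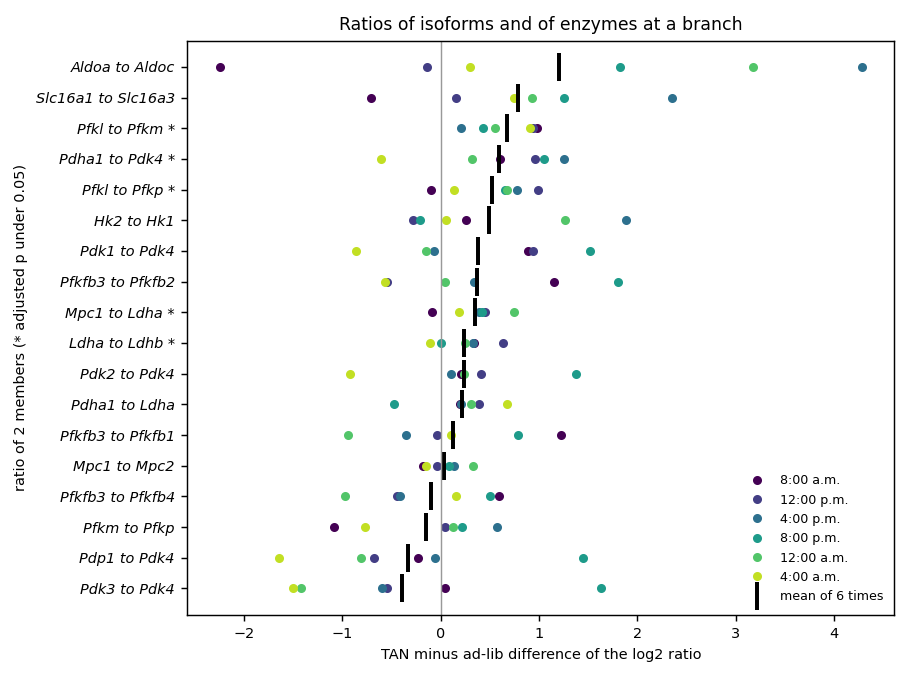
TAN minus ad-lib difference of the log2 ratio of 2 genes at each time (coloured points) and its mean over the 6 times (black bars), for 18 ratios in order of the mean. The starred ratios passed at an adjusted p under 0.05, and *Pfkl* to *Pfkm* is positive at all 6 times with a mean of 0.67.

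A second list of 30 genes that flank the pathway was tested for comparison, and 24 of them passed the filter. At 4:00 p.m. 6 were called higher and 0 lower, where 6.54% of all genes were higher and 8.77% lower. The median log2 fold change of the 24 was 0.57. *Pcx*, pyruvate carboxylase, which makes oxaloacetate from pyruvate, rose by 1.58 ± 0.42 (adjusted p = 0.0156) and also by 2.03 ± 0.43 at 12:00 p.m. (adjusted p = 0.0339). *Gpd2*, the mitochondrial arm of the glycerol phosphate shuttle, rose by 1.29 ± 0.38, and *Bsg*, the chaperone of the monocarboxylate transporters, by 0.96 ± 0.24. *Ldhd*, *Glo1* and *G6pc3* were the others. At 8:00 p.m. *Adpgk* was lower and *Bpgm* higher, where 7.91% of all genes were lower and 3.76% higher. Averaged over the times *Pcx*, *Gpd2*, *Gpd1* and *Ldhd* were higher and 0 lower, where 2.68% of all genes were higher and 2.74% lower. The muscle isoforms *Eno3* and *Pgam2* had log2 fold changes of -0.79 ± 0.97 and -1.68 ± 1.82 at 4:00 p.m. and were not called.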

How the data were processed

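Gene counts were deposited as whole-number counts per gene and library by the authors, who, per the labels, used tools that include TopHat 1.3.3, with the builds mm9, mm10 and GRCm38 named without a role. The strand setting is not given in the sources used here. Gene coordinates in the deposited table are GRCm38. A deposited table of group-mean FPKM values was not used. Members and lists were chosen with earlier results of these data known.

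Rows were kept by filterByExpr (minimum count 10), scaled by TMM and fitted in edgeR 4.0.16 (R 4.3.3) by the robust quasi-likelihood test, in 1 model of 12 diet and time groups. Calls used a Benjamini-Hochberg adjusted p under 0.05 over all 19977 genes tested, at any fold. Named genes were all members, and in the second list those called. Ratios used log2 of scaled counts plus 0.5 and a two-sided permutation of diet within time, adjusted over 18 ratios. Library totals of 15636378 to 29913310 counts set the precision. Alternatives were DESeq2 1.42.0, limma 3.58.1 (voom), other filters and scalings, marker covariates, a replicate block, each time alone and leaving out each replicate. The TEC covariate and the omission of TAN replicates 1 and 2 at 8:00 p.m. were added after seeing the data. The code was tested on simulated data. The replicate numbers did not pair the libraries.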

Additional observations from a re-analysis of the deposited data

Results flagged for a closer look

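The TAN effect differed between the 6 times for 6 genes, by the interaction test in edgeR with Benjamini-Hochberg adjustment. The adjusted p was 0.0178 for *Pfkp*, 0.024 for *Pdp1*, 0.0344 for *Tpi1*, 0.0434 for *Pgk1*, 0.0441 for *Pfkl* and 0.0442 for *Gapdh*, whose counts are uncertain. Of the 94 groups of 4 libraries whose values are described one by one, as a mean, or for a called gene, 2 held a library far from the other 3, judged by the gap as a share of the range on the log2 scale (Dixon's criterion), and chance alone marks about 1 group in 20. *Pfkm* in ad-lib at 4:00 a.m. had a gap of 0.86, with replicate 3 highest, the library rich in skeletal muscle markers. *Slc16a1* in ad-lib at 12:00 a.m. had a gap of 0.933, with replicate 2 highest.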

How the results depend on the processing

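Of 728 recomputed values for named genes and ratios, 624 kept their direction and side of the threshold, 103 kept the direction but lost the call, and 1 reversed (*Gapdh* at 8:00 p.m., -0.58 without TAN replicates 1 and 2). The causes were not tested. Members called were as follows, each set followed by the calls over all genes tested in the same fits and order. At 12:00 p.m. there were 0 with the time fitted alone and 8 with the lymphocyte covariate (all genes 1 of 16598 and 110 of 19977). At 4:00 p.m. there were 0 with that covariate and 3 with the TEC share (all genes 0 and 55 of 19977). At 8:00 p.m. there were 0 alone, 5 in DESeq2, 5 with the lymphocyte covariate, 1 without a filter and 9 without the pair of libraries. Over all genes these were 55 of 16186, 3197 of 19972, 3917 of 19977, 1293 of 33438 and 2345 of 21708. At 12:00 a.m. there were 0 alone, 17 in DESeq2, 0 with the lymphocyte covariate and 6 without the pair. Over all genes these were 0 of 15895, 568 of 18424, 9 of 19977 and 82 of 21708. For the change of the TAN effect there were 14 in DESeq2, 12 without the pair and 0 with the TEC share. There were 10 with at least 10 counts in every library and 2 without a filter. Over all genes these were 3999 of 19972, 3772 of 21708, 2 of 19977, 2283 of 11196 and 937 of 33438. For variation over time there was 1 in ad-lib in DESeq2 and 1 with the lymphocyte covariate (all genes 109 of 16104 and 34 of 19977). In TAN there were 22 in DESeq2 and 7 with the TEC share (all genes 7285 of 19972 and 1854 of 19977).

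Leaving out 1 replicate gave 0 to 1 calls for 8:00 a.m. and 1 to 3 for 12:00 p.m. It gave 11 to 17 for the 4:00 p.m. libraries and 0 to 4 for those of 8:00 p.m. Over all genes the calls were 0 to 24, 3 to 20, 408 to 2451 and 1015 to 3035, in that order. The range of members was 0 to 17 for 12:00 a.m., 9 to 15 for the mean effect and 0 to 2 for its change over time. For variation over time it was 0 to 1 in ad-lib and 2 to 12 in TAN. Over all genes these ranges were 8 to 871, 157 to 709, 2 to 982, 2 to 12 and 238 to 4240. Over all genes at 4:00 p.m., 1306 were higher and 1751 lower, against 596 and 1062 without a filter and 22 and 33 with the TEC share.

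Same-numbered libraries were correlated above 0.1 in 10 of 24 pairs (median -0.0127), so the numbers were not read as pairs. With the replicate block the members called were 2 for 12:00 p.m. and 16 for 4:00 p.m. The block left 2 for the 8:00 p.m. libraries, 0 for 12:00 a.m., 15 for the mean effect, 5 for its change and 11 over time in TAN. Over all 19977 genes the calls with the block were 12, 2230, 2126, 8, 945, 1367 and 4124, in the same order.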
